A study of Mus musculus with 16 samples.

Results

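Nuclear-encoded genes of the respiratory chain were examined in adipose tissue macrophages (ATMs) of mice on a high-fat diet (HFD). The members are all rows of the deposited count table whose gene name begins with Nduf and a subunit letter and digit, with Cox and a digit, with Atp5 or with Uqcr, or is Sdha, Sdhb, Sdhc or Sdhd. This rule gave 94 of the 37310 gene rows, after 1 pseudogene row ending in -ps was left out, and used no measured value. By name, 38 members belong to complex I, 4 to complex II, 8 to complex III, 26 to complex IV and 18 to complex V. The name is not always the complex. Ndufa4 is counted here under complex I and is known as a complex IV subunit, Cox10, Cox11, Cox15, Cox16, Cox17, Cox18 and Cox19 are assembly factors, Cox4nb is now named Emc8 and is no respiratory subunit, and Atp5l2 is annotated as a processed pseudogene. Atp5sl, now named Dmac2, and Atp5s are counted under complex V and were classed as assembly or other factors.

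The respiratory chain sits in the inner mitochondrial membrane. Complexes I and II pass electrons from NADH and succinate to ubiquinone, complex III passes them on to cytochrome c, complex IV reduces oxygen, and complex V uses the proton gradient to make ATP. Most subunits are encoded in the nucleus and imported, and a small core is encoded by mitochondrial DNA. In macrophages, oxidative metabolism is known to differ between activation states.

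The 16 libraries were made from F4/80+ ATMs sorted from epididymal fat of male mice, which were young adults when the diet began. They form 4 groups of 4: wild-type (WT) littermates and mice with a myeloid deletion of Irf5 (IRF5-KO), on a short-term HFD of 4 weeks (ST-HFD) or a long-term HFD of 12 weeks (LT-HFD). All mice received HFD, and no chow-fed library was analysed here. By the labels, mice on LT-HFD were also older at collection. Age, and any batch that followed duration, cannot be told apart from the length of the diet. The deletion came from Irf5 flox/flox alleles and LysM-Cre, a Cre inserted at the Lyz2 locus, so it is restricted to Lyz2-expressing myeloid cells, and the F4/80 gate could hold cells in which Cre did not act. The number of samples per genotype in the study matches the libraries, but whether mice were pooled is not given in the sources used here, so p-values measure the spread between libraries.

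The targeted gene did not separate the genotypes. Irf5, the transcription factor the study deleted, was at 202, 251, 247 and 247 CPM (counts scaled to library size by the trimmed mean of M-values, TMM) in WT and 250, 253, 273 and 269 in IRF5-KO on ST-HFD, and at 206, 182, 212 and 170 in WT and 206, 253, 250 and 205 in IRF5-KO on LT-HFD. The libraries labelled IRF5-KO were not lower at either duration, and gene-level counts hold reads from exons that a deletion leaves in place. Lyz2, the locus that carries Cre, was at 2959 to 4031 CPM over the 8 WT libraries and at 1391 to 2056 over the 8 labelled IRF5-KO, without overlap. The genotype is therefore given below as the label of the library. Durations are also given as labelled, and a plot of Irf5 in the study appears to show the same libraries with the durations the other way round, so the direction of each duration comparison rests on the labels.

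Total counts ranged from 3279332 to 4958131 per library. The 3 rows with the most counts, the mitochondrial ribosomal RNAs mt-Rnr1 and mt-Rnr2 and a microRNA row named mmu-mir-689-2, made up 18.6% to 24.1% of the ST-HFD libraries and 26.1% to 34.5% of the LT-HFD libraries. The share of the 94 members was 0.344% to 0.447% after 4 weeks and 0.426% to 0.508% after 12 weeks, and, once those 3 rows were left out of the total, 0.449% to 0.549% and 0.611% to 0.714%. Defining macrophage markers were present in all libraries, with the summed level of 8 markers, Lyz2 among them, at 8050 to 10026 CPM in ST-HFD and 6240 to 9569 in LT-HFD libraries. Of these 8, 5 were called lower and 1 higher on LT-HFD by edgeR, against 21.6% and 22.0% of all tested genes, with Csf1r (log2 fold change -0.75 ± 0.085, SE) and Itgam (-0.58 ± 0.089) lower without overlap. Markers of fibroblasts and preadipocytes moved with diet duration: the summed level of 8 genes ran from 675 to 1647 CPM in ST-HFD libraries and from 3140 to 9185 in LT-HFD libraries, all 8 were higher on LT-HFD, and the collagen-binding proteoglycan Dcn went from at most 200 CPM to at least 605. The part of either marker list in the results below was not tested. In bulk RNA, more cells of a type and more RNA per cell cannot be told apart.

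The upstream sequences of the members held binding motifs that are textbook features of nuclear genes for mitochondrial proteins. RefSeq promoter windows (GRCm38.p6, 250 bases before to 50 bases after the start) were matched for 72 member genes. On either strand, the NRF1 motif CGCNTGCG was present in 26 of them (36.1%) against 9.22% of 27025 genes with a window, the GABPA motif CCGGAAG in 19 (26.4%) against 9.93%, and the YY1 motif AAGATGGCG in 9 (12.5%) against 1.64%. A core of interferon regulatory factor sites, AANNGAAA, was in 18 (25%) against 26.7%. Among the 40 members with a window that were higher on LT-HFD (below), 16 held the NRF1 letters (40.0%), and among the 26 other tested members 10 did (38.5%). The shares were 30.0% and 23.1% for GABPA, 12.5% and 15.4% for YY1, and 20% and 30.8% for the interferon regulatory factor core. The GABPA and YY1 letters can share the bases AAG, so a stretch may count for both. The windows of 3 members that were higher on LT-HFD and hold such letters, and of Ndufa10, which was lower, are shown 5′ to 3′ on the gene's strand, with NRF1, GABPA or YY1 letters in capitals.
Atp5h (chr11:115419870-115420169, minus strand): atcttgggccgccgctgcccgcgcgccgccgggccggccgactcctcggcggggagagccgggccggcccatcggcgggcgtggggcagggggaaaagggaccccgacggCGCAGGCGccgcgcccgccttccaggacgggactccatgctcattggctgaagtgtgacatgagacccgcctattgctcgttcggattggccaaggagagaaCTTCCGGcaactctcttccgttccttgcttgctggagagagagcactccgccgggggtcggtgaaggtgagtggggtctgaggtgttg
Uqcrh (chr4:116075021-116075320, minus strand): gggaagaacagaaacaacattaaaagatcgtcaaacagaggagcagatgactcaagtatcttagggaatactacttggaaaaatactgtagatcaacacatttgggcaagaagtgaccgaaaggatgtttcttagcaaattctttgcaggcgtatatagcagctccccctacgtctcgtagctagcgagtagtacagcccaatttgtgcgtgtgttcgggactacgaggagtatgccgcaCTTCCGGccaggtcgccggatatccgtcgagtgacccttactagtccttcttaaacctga
Atp5l (chr9:44920693-44920992, minus strand): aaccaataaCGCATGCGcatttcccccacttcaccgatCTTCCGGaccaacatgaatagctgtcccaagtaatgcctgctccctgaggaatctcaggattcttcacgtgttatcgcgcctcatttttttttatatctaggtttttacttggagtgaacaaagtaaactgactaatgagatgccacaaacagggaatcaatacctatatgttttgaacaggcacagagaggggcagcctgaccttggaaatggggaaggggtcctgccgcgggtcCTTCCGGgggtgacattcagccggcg
Ndufa10 (chr1:92473709-92474008, minus strand): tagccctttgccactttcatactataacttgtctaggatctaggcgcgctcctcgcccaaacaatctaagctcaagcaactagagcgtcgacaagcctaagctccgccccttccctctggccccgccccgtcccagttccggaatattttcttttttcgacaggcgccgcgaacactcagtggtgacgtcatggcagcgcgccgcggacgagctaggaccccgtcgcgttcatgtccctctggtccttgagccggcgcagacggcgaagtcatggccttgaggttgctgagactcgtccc
Atp5h, subunit d of the ATP synthase stalk, holds NRF1 and GABPA letters, Uqcrh, the hinge protein of complex III, holds GABPA letters shortly before its start, and Atp5l, subunit g of ATP synthase, holds NRF1 letters and a pair of GABPA matches. Ndufa10, an accessory subunit of complex I, holds none of them. A match describes the letters and not binding.

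Members were expressed over a wide range. Of the 94, 3 had no count in any library: Cox7b2, Cox8c and a second Ndufb8 row that is now named Gm20538. Across 63791066 counts in 16 libraries, 0 counts allow a level of up to 0.0470 CPM, for counting error only. At the other end, Atp5a1 had 1413 to 2395 counts per library. Per kilobase of transcript, as a mean over 16 libraries, Cox6c was the highest member with 249 CPM per kilobase, followed by Atp5h with 233, Cox4i1 with 186, Atp5a1 with 175, Uqcrq with 153, Atp5b with 149 and Uqcrb with 137. The order differed between durations. On ST-HFD Atp5h (199 CPM per kilobase) and Cox6c (197) were followed by Atp5a1 (160) and Cox4i1 (147), and on LT-HFD Cox6c (301) and Atp5h (268) by Cox4i1 (224) and Atp5a1 (189). The highest of complex I were Ndufa6 with 133 and Ndufb10 with 82.1 CPM per kilobase. The 4 complex II subunits were closer together, with Sdha at 52.9, Sdhb at 49.6, Sdhd at 34.5 and Sdhc at 30.9 CPM per kilobase. Annotated transcripts that are at least 95% identical over at least 100 bases exist for 41 members, none of them in complex II, and how reads that fit several places were counted is not given in the sources used here, so levels of those members are less certain.

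Tissue-restricted isoforms were near 0 beside their ubiquitous paralogs. Cox4i1, the common form of subunit IV, was at 186 CPM per kilobase and Cox4i2, its lung-enriched paralog, at 0.275, with 0 to 3 counts per library. Cox6a1 was at 96.4 and the muscle form Cox6a2 at 1.11, Cox6b1 at 82.2 and the testis form Cox6b2 at 0.553, and Cox8a at 112 and the muscle and brown fat form Cox8b at 0.277 CPM per kilobase. The muscle form Cox7a1 was the least rare of them, at 4.46 CPM per kilobase against 26.7 for Cox7a2, with 2 to 14 counts per library. Ndufa4l2, a hypoxia-inducible paralog, was at 0.934 against 34.8 CPM per kilobase for Ndufa4. Muscle markers summed to 0 to 3.59 CPM and brown or beige adipocyte markers to 0.616 to 6.62 CPM in any library. Of the 3 genes for the c-ring subunit of ATP synthase, which encode the same mature protein, Atp5g3 was at 55.6, Atp5g2 at 32.8 and Atp5g1 at 8.07 CPM per kilobase. Before division by length, Atp5g1 had 1381 counts in total and Atp5g2 1216. Their order thus rests on the assigned transcript lengths of 2675.5 and 586 bases. Atp5g1 has 19 near-identical annotated copies, Atp5g2 has 1 and Atp5g3 has 0.

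**Figure D1:**
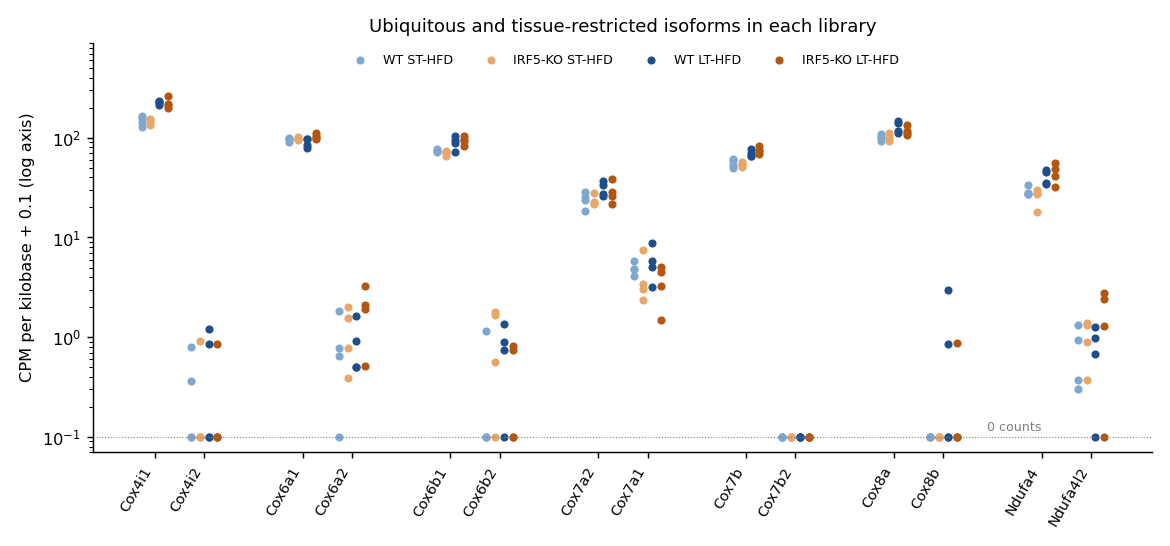
Level of each isoform in each of the 16 libraries, in CPM per kilobase of transcript plus 0.1 on a log axis, with a point per library and colours for the 4 groups, and genotype as labelled. Every ubiquitous form lies above its tissue-restricted paralog in every library, and Cox7b2 is at 0 in all of them.

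Genotype was compared first within each duration, since the study asked whether IRF5 affects ATM metabolism early in the diet. On ST-HFD no member passed the test between libraries labelled IRF5-KO and WT. Of 81 members tested with edgeR's quasi-likelihood test on all 10958 genes that passed the count filter, 0 were called higher and 0 lower (adjusted p under 0.05, Benjamini-Hochberg), where the background of called genes was 0.00913% higher and 0.0% lower. At an unadjusted p under 0.05 the members gave 0 in either direction, against 0.949% of all tested genes higher and 0.894% lower, and DESeq2 called 0. The smallest adjusted p was 1.0, with an unadjusted p of 0.0657 for Ndufb7. The median log2 fold change was -0.065 over the members and 0.0035 over all tested genes. Of the members 17 lay above 0 and 64 below, and of all tested genes 5559 above and 5399 below. By complex the median log2 fold change was -0.069 for I, -0.12 for II, -0.058 for III, -0.039 for IV and -0.096 for V.

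Single members on ST-HFD differed little beyond the spread between libraries. Cox4i1 was at 124, 97.7, 109 and 119 CPM in WT and 116, 102, 107 and 114 CPM in libraries labelled IRF5-KO. Its log2 fold change was -0.045 ± 0.11 (SE, edgeR adjusted p = 1.0), and the groups overlapped. Ndufb7, an accessory subunit of complex I, was at 40.9, 34.0, 39.4 and 36.3 CPM in WT and 35.2, 33.1, 32.2 and 27.2 CPM in IRF5-KO. Its log2 fold change was -0.24 ± 0.12 (SE), and 1 library labelled IRF5-KO lay within the WT range. Sdhd, the membrane anchor of complex II, was at 44.0, 31.9, 31.3 and 40.2 CPM in WT and 36.8, 28.2, 28.8 and 26.8 CPM in IRF5-KO, a log2 fold change of -0.30 ± 0.16 (SE) with overlapping groups. The ATP synthase subunit Atp5e had a log2 fold change of -0.33 ± 0.17 (SE). Upward, Ndufb4 and Ndufb6, both of complex I, had log2 fold changes of 0.41 ± 0.29 and 0.19 ± 0.17 (SE). Cox11, a copper-delivery factor of complex IV, had the largest absolute log2 fold change, -0.44 ± 0.38 (SE), on only 4 to 18 counts per library. The median SE over the members was 0.14 on the log2 scale, which is no limit of detection. Log2 fold changes from -0.44 to 0.41 were not called, so differences larger than the SE could also go uncalled. Same-numbered WT and IRF5-KO libraries on ST-HFD had positive correlations of their deviations, although some libraries of different numbers correlated as strongly, and a fit with the numbers as a replicate block also called no member. At an unadjusted p under 0.05 in edgeR's test the block gave 3 of 81 members lower and 0 higher, a share of 3.7% lower against 1.82% of all tested genes lower and 2.3% higher. They were Sdhd (-0.30 ± 0.11, log2, SE, unadjusted p of 0.0261), Atp5e (-0.35 ± 0.14, 0.0334) and Ndufb7 (-0.25 ± 0.11, 0.0446), each with an adjusted p of 0.992. All 3 were lower in the library labelled IRF5-KO in 4 of 4 pairs, as were 9 of the 81 members in all (11.1%, against 6.23% of all tested genes), while 3 members were higher in 4 of 4 (3.7%, against 6.53%).

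On LT-HFD no member passed the test for genotype either. Of 80 tested members 0 were called higher and 0 lower by edgeR, with a background of 0.0091% of 10987 genes higher and 0.0091% lower, and DESeq2 called 0. At an unadjusted p under 0.05 there was 1 higher member and 0 lower, against 2.23% and 3.5% of all tested genes. That member was Ndufa11, a membrane-arm subunit of complex I, at 16, 18.8, 18.3 and 18.4 CPM in WT and 25.4, 20.5, 23.8 and 22.2 CPM in libraries labelled IRF5-KO. The groups did not overlap, and the log2 fold change was 0.36 ± 0.14 (SE), with an unadjusted p of 0.0295 and an adjusted p of 0.853 in edgeR's test. Other members above 0 included Ndufb4 with 0.29 ± 0.26 (SE) and Ndufv1 with 0.24 ± 0.12 (SE). In the other direction Ndufs5 had a log2 fold change of -0.29 ± 0.16 (SE) and Sdha -0.11 ± 0.10 (SE). The median log2 fold change was 0.025 over the members and 0.00047 over all tested genes. Of the members 48 lay above 0 and 32 below, and of all tested genes 5504 above and 5483 below.

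**Figure D2:**
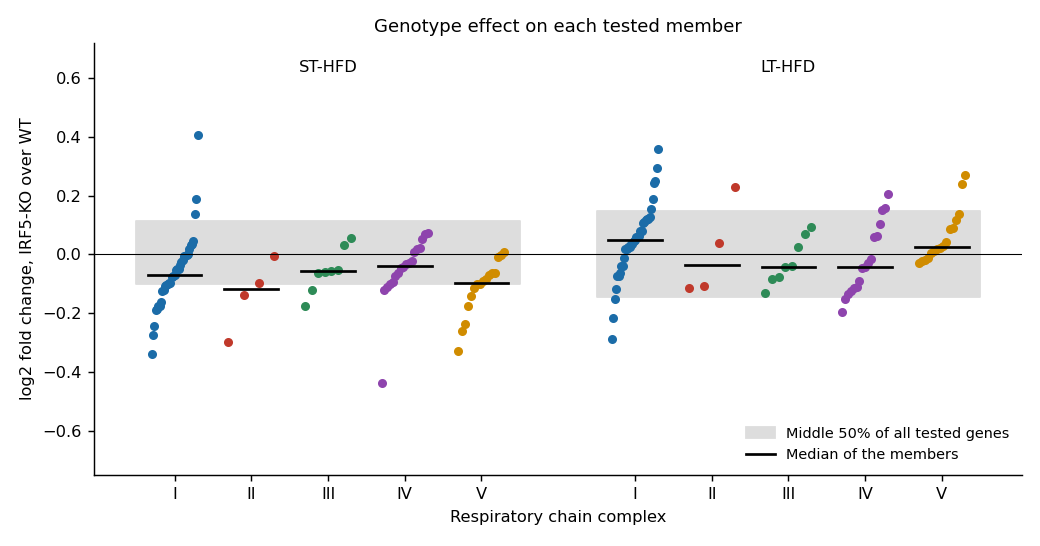
Log2 fold change of libraries labelled IRF5-KO over WT for each tested member (points), by complex, on ST-HFD (left) and LT-HFD (right), with the median of each complex (black line) and the middle 50% of all tested genes (grey band). Most points lie in or near the grey band, and the complex medians run from -0.12 to 0.049.

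Levels of the members differed between the diet durations. Averaged over both genotypes, 52 of 81 tested members were higher on LT-HFD than on ST-HFD and 1 was lower (edgeR, adjusted p under 0.05), where 22.0% of 11560 tested genes were higher and 21.6% lower. The median log2 fold change was 0.35 over the members and 0.036 over all tested genes. Upper quartile scaling moved the share of higher among all called genes from 50.4% to 62.5%. It gave 62 members higher and 1 lower, where 3313 of all 11560 genes were higher and 1989 lower, against 2539 and 2498 without it. By complex, 24 of 35 tested members of complex I were higher and 1 lower, 2 of 4 of complex II, 7 of 8 of complex III, 10 of 18 of complex IV and 9 of 16 of complex V were higher, with median log2 fold changes of 0.38, 0.23, 0.45, 0.32 and 0.26. For 14 members all 8 LT-HFD libraries lay above all 8 ST-HFD libraries, against 6.34% of all tested genes, and for 0 members they lay below, against 8.97%. Among them were Ndufa6, Ndufv1, Sdhc, Uqcrh, Cox4i1, Cox6c, Cox7a2l, Cox7b, Atp5c1, Atp5h and Atp5l.

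Transcript length moved with this result. The tested members are short, with a median transcript of 782 bases against 2718 for all tested genes, and short genes as a class were higher on LT-HFD: the median log2 fold change of all tested genes was 0.28 below 1000 bases, 0.15 from 1000 to below 2000, 0.045 from 2000 to below 3000 and -0.14 from 3000 bases. With an offset for length and GC content fitted in each library, 20 of 81 members were higher and 4 lower, a share of 24.7% higher and 4.94% lower against 20.7% and 17.6% of all genes, and the members' median log2 fold change was 0.12. All 20 were also called without the offset. By complex the offset left 7 of 35 members of complex I higher and 2 lower (20% higher, against 20.7% of all genes), 2 of 4 of complex II higher, 3 of 8 of complex III higher and 1 lower, 5 of 18 of complex IV higher and 1 lower (27.8% higher), and 3 of 16 of complex V higher (18.8%). The shares of complexes I and V thus lay at or below the background. The offset for length alone gave 24 higher (29.6%) and 5 lower (6.17%), against 21.3% and 18.6% of all genes. The offset for GC alone gave 55 higher (67.9%) and 1 lower (1.23%), against 22.9% and 20.6%. Of the members below 1000 bases, 31 of 50 were higher without the offset (62%, against 37.4% of all tested genes of that length) and 4 of 50 with it (8.0%, against 14.8%). From 1000 to below 2000 bases, 17 of 22 were higher without it (77.3%, against 26.5%) and 13 of 22 with it (59.1%, against 16.9%). The choice of offset thus decides most calls among the shortest members. Whether the length relation arises in the cells or in the libraries was not tested.

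**Figure D3:**
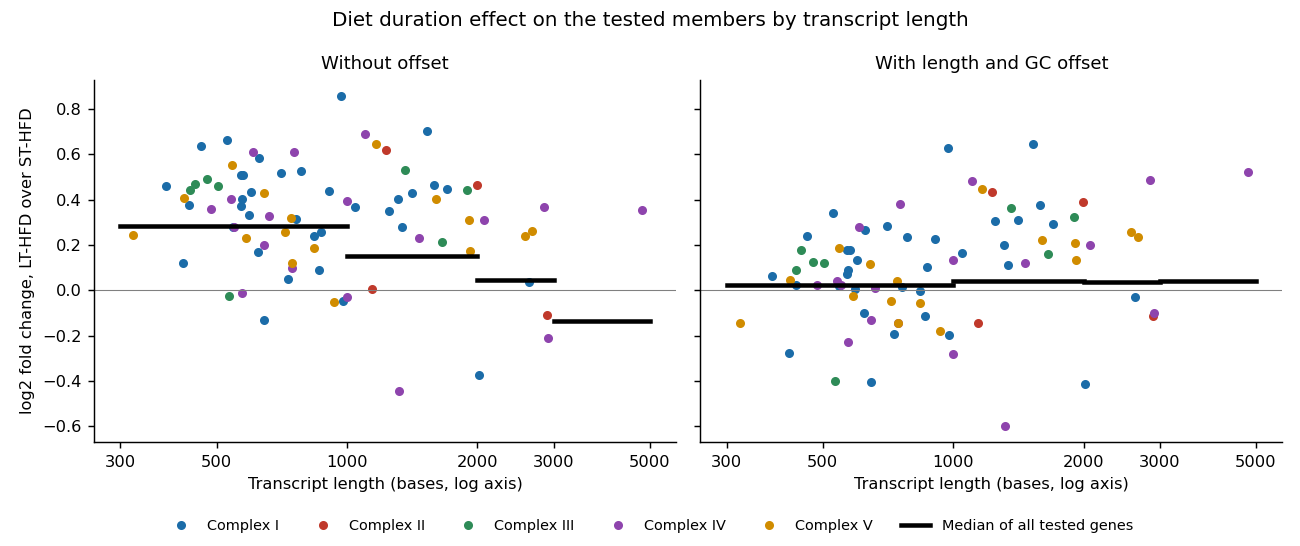
Log2 fold change of LT-HFD over ST-HFD for the 81 tested members against transcript length in bases (log axis), coloured by complex, without an offset (left) and with an offset for length and GC content (right), with black lines for the median of all tested genes in 4 length classes. The black lines step down from 0.28 to -0.14 on the left and lie between 0.023 and 0.043 on the right, where members of 1000 to below 2000 bases lie mostly above them.

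In complex I the clearest member was Ndufv1, the NADH-binding flavoprotein (chr19:4007384-4012806, GRCm38). It was at 33.1 to 52.4 CPM on ST-HFD (median 40.8) and 55.0 to 78.8 CPM on LT-HFD (median 69.9), without overlap. The log2 fold change was 0.70 ± 0.084 (SE, edgeR adjusted p = 2.99e-06), and 0.64 with the length and GC offset (adjusted p = 1.37e-05). The largest log2 fold change was that of Ndufb4, 0.86 ± 0.20 (SE), from a median of 5.60 to one of 11 CPM with overlapping groups. Ndufa6, the most abundant member of complex I per kilobase, did not overlap between durations (36.6 to 53.0 and 54.9 to 65.4 CPM), but its log2 fold change of 0.46 was 0.065 with the offset (adjusted p = 0.520). Ndufs1, a core subunit with iron-sulphur clusters, was at a median of 36.7 CPM on ST-HFD and 38.4 on LT-HFD, a log2 fold change of 0.038 ± 0.089 (SE, adjusted p = 0.757). Ndufb10 had 0.048 ± 0.084 (SE).

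Ndufa10 was the only tested member called lower (chr1:92439010-92473860, GRCm38). It was at 50.2 to 58.4 CPM on ST-HFD (median 55.8) and at 33.9 to 55.7 CPM on LT-HFD (median 41.4), so the highest LT-HFD library lay within the ST-HFD range. Its log2 fold change was -0.37 ± 0.092 (SE, edgeR adjusted p = 0.00342), and -0.41 with the offset (adjusted p = 0.00124). With the offset Uqcrb, Ndufv3 and Cox6a1 were called lower as well, at log2 fold changes of -0.40, -0.41 and -0.23, while without it they were at -0.027, -0.13 and -0.011 and not called.

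Complex II, the succinate dehydrogenase that also belongs to the tricarboxylic acid cycle, had 2 called members of 4. The membrane anchors were higher: Sdhc was at 43.9 to 63.2 CPM on ST-HFD (median 52.3) and 66.8 to 81.4 CPM on LT-HFD (median 69.9), without overlap, a log2 fold change of 0.46 ± 0.080 (SE, edgeR adjusted p = 0.000145). Sdhd was at 26.8 to 44.0 CPM (median 31.6) and 41.6 to 64.8 CPM (median 50.5), a log2 fold change of 0.62 ± 0.11 (SE, adjusted p = 0.000139). The catalytic subunits were not called. Sdha, the flavoprotein, was at 142.6 to 177.2 CPM (median 159.8) and 132.3 to 157.5 CPM (median 150.6), a log2 fold change of -0.11 ± 0.061 (SE, adjusted p = 0.152). Sdhb, the iron-sulphur subunit, was at a median of 56.2 and then 59.8 CPM, a log2 fold change of 0.0043 ± 0.092 (SE, adjusted p = 0.974). With the length and GC offset Sdhc was at 0.39 (adjusted p = 0.000605) and Sdhd at 0.44 (adjusted p = 0.00231), and Sdha and Sdhb at -0.11 and -0.15, neither called. No complex II gene has a near-identical annotated copy.

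Of complex III, Uqcrh was at 46.1 to 56.4 CPM on ST-HFD (median 51.1) and 64.4 to 79.1 CPM on LT-HFD (median 72.8). The groups did not overlap, and the log2 fold change was 0.49 ± 0.067 (SE, edgeR adjusted p = 1.35e-05), but 0.12 with the offset (adjusted p = 0.148). Uqcrfs1, the Rieske iron-sulphur protein, had a log2 fold change of 0.53 ± 0.10 (SE), from a median of 38.4 to one of 55.1 CPM, and 0.36 with the offset (adjusted p = 0.00771). Uqcrc1, a core protein, had 0.21 ± 0.063 (SE, adjusted p = 0.0120), from a median of 102.7 to one of 114.4 CPM. Uqcrq, the most abundant of the complex per kilobase, had 0.46 ± 0.10 (SE) and 0.12 with the offset (adjusted p = 0.298). Uqcrb was at a median of 75.5 and 71.5 CPM and was the member of complex III that was not called.

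In complex IV, Cox4i1 (chr8:120668222-120674207, GRCm38) was at 97.7 to 123.9 CPM on ST-HFD (median 111.4) and 150.6 to 198.1 CPM on LT-HFD (median 168.3), without overlap. The log2 fold change was 0.61 ± 0.072 (SE, edgeR adjusted p = 2.53e-06) and 0.38 with the offset (adjusted p = 0.000123). Its exons overlap those of Emc8 on the opposite strand, and the strand setting of the counting is not given in the sources used here. Cox6c was at 106.5 to 139.8 CPM (median 116.9) and 167.2 to 207.9 CPM (median 176.9), 0.61 ± 0.073 (SE, adjusted p = 3.3e-06) and 0.28 with the offset (adjusted p = 0.00210). Cox7a2l, which takes part in joining complexes III and IV into supercomplexes, was at 47.1 to 62.5 CPM (median 58.5) and 70.5 to 104.3 CPM (median 87.1), 0.69 ± 0.091 (SE, adjusted p = 9.01e-06) and 0.48 with the offset (adjusted p = 0.000194). Other subunits of the same enzyme lay closer to 0: Cox5a, Cox5b and Cox6a1 had log2 fold changes of 0.20 ± 0.10, 0.096 ± 0.080 and -0.011 ± 0.065 (SE), and none was called. Cox6b1, Cox7b and Cox8a were called at 0.36, 0.39 and 0.28, and with the offset stood at 0.022, 0.13 and 0.025, not called. Cox7a2 had 0.33 ± 0.13 (SE, adjusted p = 0.0571). Of the assembly factors in the rule, Cox15 and Cox17 were called higher.

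In complex V, Atp5c1, the gamma subunit of the rotor, was at 72.6 to 100.3 CPM on ST-HFD (median 83.5) and 106.9 to 154.6 CPM on LT-HFD (median 132.9), without overlap. The log2 fold change was 0.65 ± 0.093 (SE, edgeR adjusted p = 2.43e-05) and 0.45 with the offset (adjusted p = 0.000346). Atp5h was at 121.9 to 138.1 CPM (median 125.0) and 160.4 to 185.4 CPM (median 169.7), 0.43 ± 0.057 (SE, adjusted p = 1.03e-05), and Atp5l at 16.9 to 24.6 CPM (median 21.4) and 27.3 to 35.8 CPM (median 29.6), 0.55 ± 0.089 (SE, adjusted p = 6.81e-05). Both lost their call with the offset (log2 fold changes of 0.12 and 0.19, adjusted p = 0.0731 and 0.106), and Atp5l has 11 near-identical annotated copies. The catalytic head subunits had smaller log2 fold changes: Atp5a1 was at 331.6 to 456.5 CPM (median 419.8) and 416.0 to 545.7 CPM (median 493.1), 0.24 ± 0.077 (SE, adjusted p = 0.0181), and Atp5b at 219.9 to 299.6 CPM (median 248.1) and 277.0 to 374.9 CPM (median 305.8), 0.31 ± 0.083 (SE, adjusted p = 0.00562). For each, ST-HFD and LT-HFD libraries overlapped, and both genes were still called with the offset, at 0.26 and 0.21. Of the c-ring genes, Atp5g3 was called at 0.26 ± 0.089 (SE) and stood at -0.047 with the offset (adjusted p = 0.661), and Atp5g1 and Atp5g2 were not, at 0.26 ± 0.13 and 0.23 ± 0.12 (SE).

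Summed by complex, without an offset for length, levels were higher on LT-HFD in 4 of the 5 complexes without overlap. Complex II transcripts have 1142 to 2900 bases, against a median of 782 for the tested members. With the length and GC offset, 20% of complex I, 18.8% of complex V and 50% of complex II members were called higher, against 20.7% of all genes. The part of length in the sums was not tested. Complex I summed to 982 to 1135 CPM over the 8 ST-HFD libraries and 1202 to 1386 CPM over the 8 LT-HFD libraries, a ratio of means of 1.25. Complex III summed to 379 to 439 and 476 to 561 CPM (ratio 1.26), complex IV to 699 to 795 and 913 to 1096 CPM (ratio 1.32), and complex V to 1164 to 1465 and 1480 to 1815 CPM (ratio 1.24). Complex II overlapped, at 270.2 to 341.0 and 301.8 to 346.5 CPM (ratio 1.09). Scaled by library size alone, the complex V groups overlapped too, with 1574 CPM in the highest ST-HFD and 1441 CPM in the lowest LT-HFD library. Between genotypes within a duration every complex overlapped. A sum weights the most abundant genes, so Atp5a1 and Atp5b carry much of complex V.

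**Figure D4:**
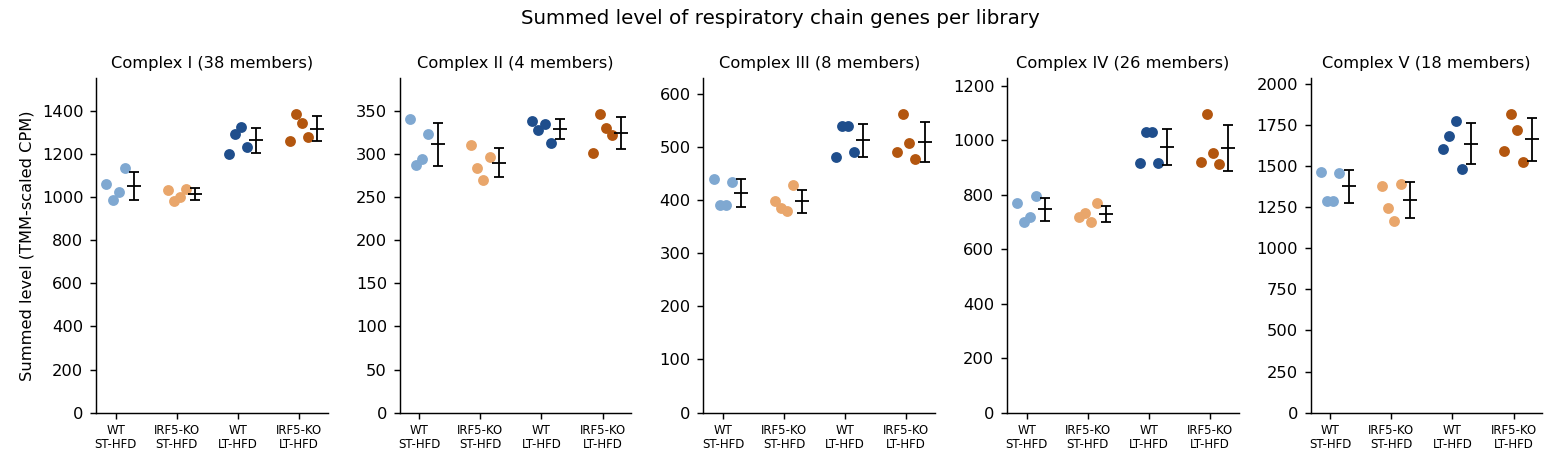
Summed TMM-scaled CPM of the members of each complex in each library (points), without an offset for length, by group, with the mean and SD of 4 libraries (black). In complexes I, III, IV and V all LT-HFD points lie above all ST-HFD points, while in complex II the groups overlap and no complex separates WT from IRF5-KO labels.

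Within each genotype the direction was the same. In WT, 27 of 81 tested members were higher on LT-HFD and 0 lower (edgeR), with 12.1% of all tested genes higher and 13.2% lower, and a median log2 fold change of 0.31. DESeq2 also called 0 lower in WT, and at an unadjusted p under 0.05 42 members were higher and 1 lower (51.9% and 1.23%), against 17.9% and 18% of all tested genes. Leaving out 1 library at a time moved the WT count to between 14 and 29, with 14 without ST-HFD replicate 2, 16 without ST-HFD replicate 3, 17 without LT-HFD replicate 2 and 18 without LT-HFD replicate 3. Over all tested genes, calls in either direction ranged from 2140 to 2851 in these fits, against 1401 higher and 1527 lower with no library left out. Scaling by library size alone gave 11 higher and 1 lower (13.6% higher, against 8.67% of all genes), and no filter on low counts gave 13 of 91 higher and 0 lower (14.3% higher, against 5.77%). In libraries labelled IRF5-KO, 47 were higher and 1 lower, with 15.6% and 17.2% of all tested genes, and a median of 0.40. The count was 30 higher without LT-HFD replicate 2, and with no filter on low counts 30 of 91 (33.0%, against 7.27% of all genes). Leaving out 1 IRF5-KO library at a time, calls over all tested genes ranged from 3028 to 3753 in either direction, against 1802 higher and 1986 lower with none left out. The lower member was Ndufa10, whose call was lost without ST-HFD replicate 1 or 4 or LT-HFD replicate 1 or 3. Of the 27 members called in WT, 25 were among the 48 called in IRF5-KO (92.6% and 52.1% of the lists), and the 2 others were Cox8a and Ndufs5. The same overlap over all tested genes is not given here, so these shares cannot be read as particular to the members. With the length and GC offset 10 members were higher and 4 lower in WT (12.3% and 4.94%), against 11.5% and 9.31% of all genes. In IRF5-KO 12 were higher and 3 lower (14.8% and 3.7%), against 13.8% and 13.2% of all genes, so the shares higher lay near the background in both genotypes. In WT the smallest p-values were those of Cox6c (log2 fold change 0.62), Cox4i1 (0.60), Cox7a2l (0.70) and Uqcrh (0.48). In IRF5-KO they were those of Ndufv1 (0.91), Cox4i1 (0.62), Atp5l (0.73) and Atp5h (0.47).

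**Figure D5:**
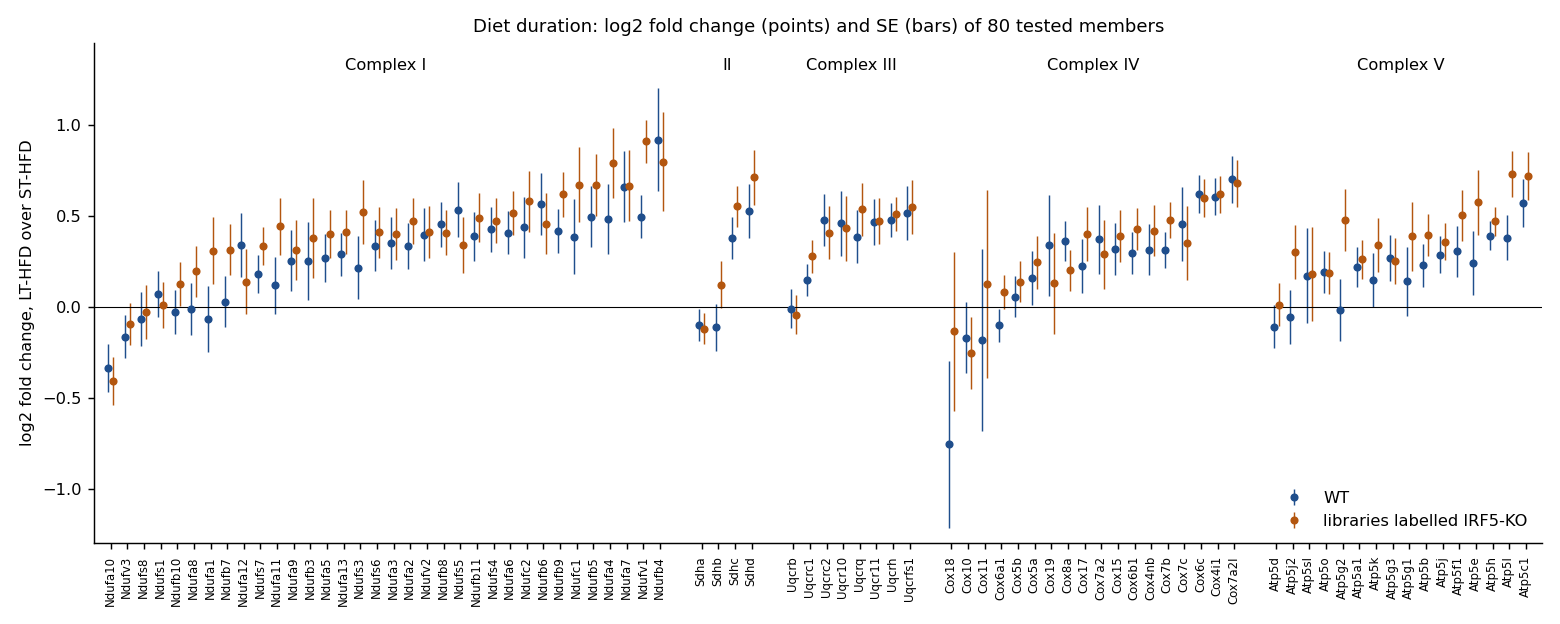
Log2 fold change of LT-HFD over ST-HFD with its SE for 80 tested members, in WT (blue) and in libraries labelled IRF5-KO (orange), by complex and ordered by the average over genotypes. Most points of both colours lie above 0, Ndufa10 lies below 0 in both, and the wide bars of Cox18 and Cox11 mark low counts.

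The larger count in IRF5-KO is not a tested difference between genotypes. The interaction of genotype and duration called 0 of 81 members in either direction (edgeR, background 0.0% higher and 0.0% lower of 11560 genes), and DESeq2 called 0. At an unadjusted p under 0.05 there was 1 member above 0 and 0 below, against 1.63% and 2.29% of all tested genes. It was Ndufv1, at 40.3, 42.4, 39.6 and 52.4 CPM in WT and 41.4, 33.1, 39.4 and 41.5 CPM in IRF5-KO on ST-HFD, and at 56.5, 55.0, 62.9 and 71.6 CPM in WT and 78.8, 71.1, 73.4 and 68.7 CPM in IRF5-KO on LT-HFD. Genotypes overlapped at both durations. Its interaction was 0.42 ± 0.17 on the log2 scale (SE), with an unadjusted p of 0.0234 and an adjusted p of 0.969 in edgeR's test. Atp5g2 followed at 0.50 ± 0.24 (SE), and Cox18 had the largest value, 0.62 ± 0.63 (SE), on 3 to 24 counts per library. In the negative direction Cox8a had -0.16 ± 0.16 (SE) and Ndufs5 -0.20 ± 0.21 (SE). The median over the members was 0.10, and over all tested genes -0.0089.

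Other genes of the pathway were described from lists, to be read against the 22.0% of all tested genes called higher and 21.6% called lower on LT-HFD. Of 6 genes named outside the rule, 4 were higher on LT-HFD by edgeR averaged over genotypes and 0 lower: Usmg5, an ATP synthase-associated protein, by 0.72 ± 0.12 (log2, SE), Minos1, which belongs to the cristae-organising MICOS complex and not to the chain, by 0.40 ± 0.085, Cyc1, cytochrome c1 of complex III, by 0.30 ± 0.095, and Ndufab1, the acyl carrier protein in complex I, by 0.31 ± 0.12. Of 40 tested assembly factors 7 were higher (17.5%, below the background) and 0 lower, with a median log2 fold change of 0.24, among them Surf1 for complex IV (0.72 ± 0.15, SE), Pet100 for complex IV (0.43 ± 0.095) and Ndufaf8 for complex I (0.68 ± 0.16). Of 16 tested tricarboxylic acid cycle genes 4 were higher (25%, near the background) and 1 lower (6.25%), with a median of 0.074: Suclg1 (0.37 ± 0.10), Pdha1 (0.27 ± 0.078) and Sucla2 (0.30 ± 0.096) among the former, and Fh1, fumarase, at -0.25 ± 0.094. With the length and GC offset these 3 lists gave 2 higher and 0 lower, 4 higher and 0 lower, and 3 higher and 2 lower, where 20.7% of all genes were higher and 17.6% lower.

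Subunits encoded by mitochondrial DNA were called 2 higher and 2 lower of 8 without the offset (25% each, near the 22.0% and 21.6% of all tested genes). Of 13 such genes 8 could be tested, since mt-Co2, mt-Co3, mt-Atp6, mt-Atp8 and mt-Nd4l had at most 7 counts in any library, although mt-Co1 had 7893 to 17673. On LT-HFD mt-Nd3 (0.81 ± 0.14, log2, SE) and mt-Nd1 (0.34 ± 0.12) were higher, while mt-Nd4 (-0.65 ± 0.13) and mt-Nd5 (-0.59 ± 0.15) were lower. For mt-Nd4 the range was 358 to 848 CPM on ST-HFD and 281 to 443 CPM on LT-HFD, with overlap. With the length and GC offset 0 of the 8 were higher and 6 lower (75%, against 17.6% of all genes), with a median log2 fold change of -0.49.

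Among 17 tested regulators 2 were higher (11.8%, against 22.0% of all tested genes) and 7 lower (41.2%, against 21.6%). Tfam, which packages mitochondrial DNA and helps to initiate its transcription, was higher (0.41 ± 0.12, log2, SE), as was Gabpb1, a partner of GABPA (0.29 ± 0.12). The lower ones included the coactivators Ppargc1b (-1.61 ± 0.28), from a median of 22.9 CPM on ST-HFD to one of 7.17 CPM on LT-HFD, and Pprc1 (-0.65 ± 0.11), Polrmt, the mitochondrial RNA polymerase (-0.80 ± 0.15), and Yy1 (-0.40 ± 0.077). With the offset 2 were higher and 2 lower (11.8% each, against 20.7% and 17.6% of all genes). Of 78 cytosolic ribosomal protein genes, short transcripts with a median of 779 bases, 67 were higher (85.9%) and 0 lower, with a median log2 fold change of 0.44, led by Rps21 (0.91 ± 0.061), Rps14 (1.02 ± 0.087) and Rpl34 (0.76 ± 0.067), and 46 were higher and 4 lower with the offset. Of 75 tested mitochondrial ribosomal protein genes 21 were higher (28%, against 22.0% of all tested genes) and 1 lower (1.33%, against 21.6%), with a median of 0.23, among them Mrpl52 (0.43 ± 0.077), Mrps24 (0.36 ± 0.086) and Mrpl36 (0.63 ± 0.16), and the lower one was Mrps15 (-0.46 ± 0.10). With the offset 6 were higher (8.0%, against 20.7%) and 1 lower. No gene of these 7 lists was called by edgeR for genotype on ST-HFD or LT-HFD. At an unadjusted p under 0.05, on ST-HFD 1 assembly factor and 3 mitochondrial ribosomal protein genes lay lower and 1 regulator higher. At that threshold on LT-HFD, 5 mitochondrial ribosomal protein genes lay higher, and 2 other genes of that list and 2 regulators lower. The same threshold was passed on ST-HFD by 0.949% of all tested genes upward and 0.894% downward, and on LT-HFD by 2.23% and 3.5%.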

How the data were processed

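Strand-marking total RNA libraries (SMARTer Stranded Total RNA-Seq Pico) were sequenced by the authors, who aligned reads to mm10 and generated the deposited raw counts per gene. The submitters' processing notes list fastp 0.19.11 and STAR 2.7.3a. Multi-mapping and strand settings and the gene annotation are not given in the sources used here. Members and lists were chosen with earlier results of these data known. Groups came from the library titles. Counts were fitted over all genes with edgeR 4.0.16 in R 4.3.3 (filterByExpr, TMM, quasi-likelihood test, Benjamini-Hochberg adjusted p under 0.05): genotype within each duration on 8 libraries, and duration and interaction on all 16. The study's methods name DESeq2, here (version 1.42.0) an alternative. A fold change is log2. Levels are TMM-scaled CPM, divided by transcript length in kilobases (median over protein-coding transcripts of the GENCODE M21 basic set, or all basic transcripts where there are none, GRCm38) to compare genes. Of 94 members 13 fell below the count filter and were not tested over 16 libraries. For 1 tested member the individual values are not reported here. Genes named in the text are complex II, a fixed set of catalytic and other subunits, isoform pairs and the 2 highest per kilobase of each other complex. Also named are those with the smallest p or largest fold change in each comparison and, within lists, up to 3 per direction with the smallest p. Other members were named after their values were seen. The other lists cover assembly factors, subunits outside the name rule, mitochondrially encoded subunits, regulators, tricarboxylic acid cycle, cytosolic and mitochondrial ribosomal proteins, and cell type markers.

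No 2 libraries of a group agreed within sampling noise. The correlation of deviations from group means over 9765 genes between same-numbered WT and IRF5-KO libraries on ST-HFD was 0.369, 0.483, 0.179 and 0.298, so these were treated as pairs in an alternative fit. Between libraries of different numbers it ran from -0.509 to 0.467. Alternatives were DESeq2, other scalings and filters, leaving out each library, replicate blocks, and offsets for length and GC content (loess within each library). Offsets for length alone or GC alone were chosen after seeing the data.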

Additional observations from a re-analysis of the deposited data

Results flagged for a closer look

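In 7 of the 184 groups of 4 libraries examined (40 named members and 6 summed levels), 1 library lay far from the other 3 by Dixon's test, and chance flags about 1 in 20 groups. All 7 were on ST-HFD. Among libraries labelled IRF5-KO, Atp5g2 was at 20.9 CPM in replicate 4, Cox7a2 at 18.4 CPM in replicate 1, Ndufa11 at 19.0 CPM and Ndufs5 at 18 CPM in replicate 2, each above the other 3. In WT, Cox5b was at 72.9 CPM and Cox6a1 at 51.4 CPM in replicate 2, below the other 3, and Ndufa4 was at 15.4 CPM in replicate 1, above them. No member was called for genotype.

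The duration effect of Ndufv1 differed between genotypes by 0.42 on the log2 scale at an unadjusted p of 0.0234 in edgeR's test of the interaction, and the adjusted p was 0.969. It was higher on LT-HFD in both genotypes, by 0.49 in WT and 0.91 in libraries labelled IRF5-KO.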

How the results depend on the processing

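No alternative called a member for genotype at either duration or for the interaction. All genes called for genotype on ST-HFD were 1, and 2 under DESeq2, no filter on low counts, a fit over 16 libraries, the replicate block, and the block with the length and GC offset. On LT-HFD they were 2, and 7 under DESeq2, 6 with no filter, 1 under library size alone, and 0 with a mean count of at least 20, with the length and GC offset, with length alone, and with the replicate block with or without that offset (0 to 2 leaving out 1 library). For duration in WT (27 members higher, 0 lower, median 0.31), library size alone gave 11 higher, 1 lower and a median of 0.22, no filter 13 higher, the replicate block 15 higher, the length and GC offset 10 higher, 4 lower and 0.11, length alone 8 higher, 3 lower and 0.13, and a fit over 8 libraries 1 lower. In libraries labelled IRF5-KO (47 higher, 1 lower, median 0.40), no filter gave 30 higher, the offset 12 higher, 3 lower and 0.12, length alone 17 higher, 3 lower and 0.12, upper quartile scaling 0 lower and a median of 0.51, and a fit over 8 libraries 0 lower. Within a genotype, no share of all genes is given here for the replicate block, length alone or the fit over 8 libraries. Those counts of members thus have no background beside them. Averaged over genotypes (52 higher, 1 lower, median 0.35), the offset gave 20 higher, 4 lower and 0.12, length alone 24 higher, 5 lower and 0.11, and upper quartile scaling a median of 0.45 with 62 higher. Upper quartile scaling moved the median of all genes by 0.11 in IRF5-KO, 0.094 averaged and 0.078 in WT, about as far as that of the members. The summed level of complex I had a ratio of 1.20 under library size alone. Leaving out 1 library, members higher ranged from 14 to 29 in WT, from 30 to 41 in IRF5-KO (0 to 1 lower) and from 48 to 54 averaged, and the members' median ranged from -0.11 to -0.027 for genotype on ST-HFD, from -0.044 to 0.062 on LT-HFD, from 0.26 to 0.34 for duration in WT, from 0.36 to 0.43 in IRF5-KO and from 0.32 to 0.36 averaged, and from 0.054 to 0.13 for the interaction. The cause was not tested beyond what each alternative removes.

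Averaged over genotypes, 14 of 81 members changed sign with the length and GC offset, 14 with length alone and 3 with GC alone. Of those named in the text, with the length and GC offset Atp5g2 was at -0.025, Atp5g3 at -0.047, Cox5a at -0.13, Cox5b at -0.14, Ndufb10 at -0.19, Ndufb7 at -0.10, Ndufs1 at -0.027 and Sdhb at -0.15, and with length alone Atp5g2 was at -0.060, Atp5g3 at -0.00022, Cox5a at -0.077, Cox5b at -0.16, Cox8a at -0.024, Ndufa11 at -0.024, Ndufb10 at -0.21, Ndufb7 at -0.11 and Sdhb at -0.17. Cox6a1 was at 0.083 under upper quartile scaling, 0.0092 with a mean count of at least 20 and 0.13 with GC alone. Under library size alone Ndufs1 was at -0.025 and Sdhb at -0.051, and Sdhb was at -0.014 with no filter and at -0.0063 with the replicate block. Leaving out 1 library, Cox6a1 ranged from -0.031 to 0.015, Ndufs1 from -0.0034 to 0.12 and Sdhb from -0.057 to 0.051. Of all members that changed sign under an offset, Atp5g3 (both offsets with length), Cox8a and Ndufa11 (length alone) were called without it.

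Same-numbered libraries on LT-HFD had correlations of -0.070, -0.151, 0.058 and 0.233 and shared only a number, as did libraries of different durations. The replicate block changed no call of a member for genotype. Depth limits members with few counts, such as Cox11 and Cox18.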

Other observations

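Summed levels of the other marker lists were compared between the 8 ST-HFD and the 8 LT-HFD libraries. Mural cell markers (5 genes, 1 called higher and 1 lower by edgeR) ran from 9.08 to 59.8 CPM and from 47.6 to 120.9 CPM, and B cell markers (4 genes, 1 tested) from 2.60 to 5.80 and from 5.41 to 9.40 CPM. Neutrophil markers (5 genes, 1 tested and lower) ran from 28.2 to 45.8 and from 14.6 to 36.2 CPM, adipocyte markers (8 genes, 4 tested, 1 lower) from 17.2 to 39.2 and from 6.49 to 31.4 CPM, and dendritic cell markers (5 genes, 3 tested, 1 lower) from 42.8 to 106.9 and from 15.1 to 109.7 CPM. Endothelial markers (4 of 5 tested, none called) ran from 11.3 to 82.6 and from 13.0 to 70.9 CPM. Mesothelial, T and NK cell, and eosinophil and mast cell markers summed to at most 18.5, 6.92 and 5.27 CPM in any library. Their part in the differences between durations was not tested.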
